A study of Mus musculus with 4 samples.

Results

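Keratins are described here in 4 spatial transcriptomic sections of mouse kidney. The genes followed were Krt5, Krt7, Krt8, Krt15, Krt18, Krt19 and Krt20, listed as keratins of kidney tubule and urothelium. They are 7 of the 53 keratin genes (symbols beginning with Krt, keratin-associated proteins left out) among the 32285 genes of the count matrices. All 7 passed the filter on low counts in every comparison. The comparison was between 2 conditions, each with 2 sections of a left kidney from wild-type male C57BL/6J mice aged 7 to 8 weeks. Normal kidneys were not clamped, and ischemic kidneys were taken 24 h after 30 min of bilateral ischemia. Sections were 10 µm thick, cut from kidneys without their capsule, and permeabilized for 12 min on a Visium slide, where each spot collects RNA from a small patch of tissue that can hold several cells. All 4 sections lay on 1 slide, with normal and ischemic sections on different capture areas, so capture area and condition cannot be told apart. The labels do not give the animal of each section, so the section was the replicate. Whole-section p-values measure the spread between sections, which may be technical. Tests within kidney zones were fitted jointly on sums per section and zone. Sums of the same section entered that fit as if independent, so p-values within zones can be too small.

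Keratins are the intermediate filament proteins of epithelia. A type I keratin (here Krt15, Krt18, Krt19 and Krt20) pairs with a type II keratin (Krt5, Krt7 and Krt8) to build a filament, and Krt8 with Krt18 is the usual pair of simple epithelia. In the kidney, Krt7, Krt8, Krt18 and Krt19 are known from collecting ducts and other distal epithelium. The urothelium, the layered lining of the renal pelvis, has Krt5 in its basal layer and Krt20 in its surface umbrella cells, which also carry the uroplakins, and Krt15 is known from basal cells of layered epithelia.

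The depth of a section ranged from 25957128 to 44528078 unique molecular identifiers (UMIs, 1 per captured RNA molecule), over 2401 to 2682 tissue spots. Each spot was assigned to 1 of 5 zones from marker genes that include no keratin: cortex, outer stripe and inner stripe of the outer medulla, inner medulla, and pelvis, the last from 4 uroplakin genes and Psca, which is also a urothelial gene. The pelvis zone held 131 and 135 spots in the normal sections, and 94 and 129 after ischemia. The inner medulla zone was also unequal, with 141 and 241 spots in the normal sections and 318 and 329 after ischemia. Zones were assigned on counts pooled over a spot and its neighbours. Without neighbours, 68.7% and 56.3% of the pelvis spots of normal sections stayed in the pelvis zone, against 27.7% and 27.9% in ischemic sections. The pelvis zone therefore does not hold like spots in the 2 conditions. The injury genes Havcr1 and Lcn2 followed the labels: Havcr1 had 43 and 59 UMIs in the normal sections against 43731 and 36668 in the ischemic sections, and Lcn2 had 219 and 220 against 94901 and 94111. The amount of urothelial RNA was unequal. The 5 pelvis genes summed to 201 and 526 UMIs per 1e+06 UMIs (CPM) in the whole normal sections and to 31.8 and 58.4 CPM after ischemia, and all 5 were lower in ischemic sections. In spots, fewer cells of a type and less RNA per cell cannot be told apart. Of 6 other urothelial genes outside the zone lists, 4 were lower (Ly6d, Grhl3, Fxyd3 and Gsdmc2), Trp63 did not pass the test and Sprr1a was higher. Of all 15305 genes tested in whole sections, 60.6% were called. That share also stands beside the mesothelial and epidermal genes below. Leukocyte genes summed to 49.5 and 79.1 CPM in normal and 244 and 240 CPM in ischemic sections, and fibroblast genes to 79.7 and 136 against 124 and 132 CPM. Of 3 mesothelial genes, Lrrn4 was at 0 in every section, Upk3b was lower and Msln did not pass the test, and of 3 epidermal genes Sbsn was higher, Lor was lower and Dsg1a had 1 UMI in all 4 sections together.

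The members lie in the 2 keratin clusters of the mouse genome (GRCm38, GENCODE M21), and all 7 gene identifiers were matched. Krt5 (chr15:101707070-101712898, minus strand), Krt7 (chr15:101411043-101430313, plus strand), Krt8 (chr15:101996698-102004482, minus strand) and Krt18 (chr15:102028180-102032027, plus strand) lie on chromosome 15, with 23697 bp between Krt8 and Krt18. Krt15 (chr11:100131758-100135928), Krt19 (chr11:100140810-100148665) and Krt20 (chr11:99428403-99438150) lie on the minus strand of chromosome 11, with 4881 bp between Krt15 and Krt19. Krt7 overlaps the antisense gene Gm671, which had 61 to 89 UMIs per section against 4815 to 7051 of Krt7, and Krt8 overlaps Gm36026, which had 2 to 3 UMIs. No source used here states whether strand was used in counting, so the UMIs of each overlapping pair could be mixed to that extent.

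The 250 bases before the start of Krt20, the member with the widest change, and of Krt5, a member whose whole-section level did not pass the test, are shown because these 2 windows overlap no annotated exon. They are RefSeq sequences on GRCm38.p6, written 5′ to 3′ on the strand of the gene, at chr11:99438154-99438403 (minus strand) and chr15:101712906-101713155 (minus strand). Capitals mark matches, on either strand, to TATAAA (the TATA box), TGANTCA (the AP-1 motif) or GGAATG (the TEAD motif).
Krt20: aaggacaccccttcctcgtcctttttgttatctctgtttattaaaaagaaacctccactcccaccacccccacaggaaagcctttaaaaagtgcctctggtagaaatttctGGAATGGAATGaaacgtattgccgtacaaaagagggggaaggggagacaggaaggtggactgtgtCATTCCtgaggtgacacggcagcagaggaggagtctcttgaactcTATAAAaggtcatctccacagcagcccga
Krt5: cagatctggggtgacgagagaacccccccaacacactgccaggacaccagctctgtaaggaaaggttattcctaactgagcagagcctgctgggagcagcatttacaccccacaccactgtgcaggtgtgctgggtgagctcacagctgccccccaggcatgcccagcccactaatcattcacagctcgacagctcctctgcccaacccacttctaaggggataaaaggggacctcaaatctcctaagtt

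The Krt20 window held TATAAA at positions -29 to -24 from the start, and GGAATG at -139 to -134 and -134 to -129, copies that share 1 base, with another copy on the opposite strand at -74 to -69. The Krt5 window held none of the 3 motifs. Among 32851 promoter windows of the same length, 12.4% held TATAAA, 12.6% held GGAATG and 6.75% held TGANTCA. Windows of 5 members were in the table, and the other 3 (Krt7, Krt8 and Krt18) held none of these letters either. These matches are descriptions of the sequence.

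In whole sections, 4 members rose with ischemia (Krt7, Krt8, Krt18 and Krt20), Krt15 fell, and Krt5 and Krt19 did not pass the test. That is 5 of 7 members called, where 60.6% of the 15305 genes tested were called (edgeR's quasi-likelihood test, Benjamini-Hochberg adjusted p under 0.05), so the share of members called was near that of all genes. The median difference of the members was 0.50 on the log2 scale, against 0.04 for all genes tested. Sizes stood further apart: Krt8 and Krt20 were called and more than 4-fold higher, which 3.70% of genes were. The members were chosen with earlier results of these data known. Their shares and medians against all genes, here and by zone, are therefore descriptions only. Levels below are normalized CPM (CPM after scaling by the trimmed mean of M-values, TMM), and whole-section and zone levels were scaled separately.

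Krt20 was at 0.46 and 0.62 normalized CPM in the whole normal sections and at 205 and 220 after ischemia. These rest on 17 and 17 UMIs against 6969 and 6310. The groups stood far apart, with a log2 difference of 8.64 ± 0.18 (SE, 2 sections per group, edgeR adjusted p = 2.11e-08), the 27th largest rise of all genes tested. Krt8, the type II keratin of simple epithelia, was at 125 and 134 in normal sections, against 595 and 641 after ischemia, a log2 difference of 2.26 ± 0.14 (edgeR adjusted p = 1.59e-06). Krt18, its type I partner, was at 59.4 and 90.4 against 177 and 193, a log2 difference of 1.31 ± 0.18 (edgeR adjusted p = 0.000264). For all 3 genes both ischemic sections lay above both normal sections.

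The other 4 members moved less. Krt7, a type II keratin of ducts and urothelium, was at 134 and 174 in normal sections, against 208 and 227 after ischemia, a log2 difference of 0.49 ± 0.15 (edgeR adjusted p = 0.0167). This call was lost without ischemic section 1 (edgeR adjusted p = 0.0850) and without ischemic section 2 (0.187). Krt15, a type I keratin of basal cells, was at 4.99 and 14.5 in normal sections, against 3.33 and 5.58 after ischemia, so that the groups overlapped, and its log2 difference was -1.12 ± 0.44 (edgeR adjusted p = 0.0498). The Krt15 call was lost with DESeq2 (-1.16, adjusted p = 0.220), without normal section 2 (-0.21, edgeR adjusted p = 0.279), without ischemic section 1 (-0.77, 0.0979) and without the TMM factors (-0.91, 0.130), a setting added after seeing the data. Krt5, the type II keratin of basal cells, was at 1.60 and 4.67 against 3.12 and 5.58 (log2 difference 0.50, edgeR adjusted p = 0.349). Krt19, a type I keratin with no tail domain, was at 19.5 and 39.8 against 27.5 and 37.8 (0.15, edgeR adjusted p = 0.668). The groups of Krt5 and Krt19 overlapped. Without normal section 2, Krt5 (1.39) and Krt19 (0.71) passed the test as rises, and without normal section 1 Krt19 passed it as a fall (-0.28). For Krt5, Krt15 and Krt19, normal section 2 was the higher normal section, as it was for the pelvis genes (526 against 201 CPM), and the part of urothelial content in these values was not tested.

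**Figure D1:**
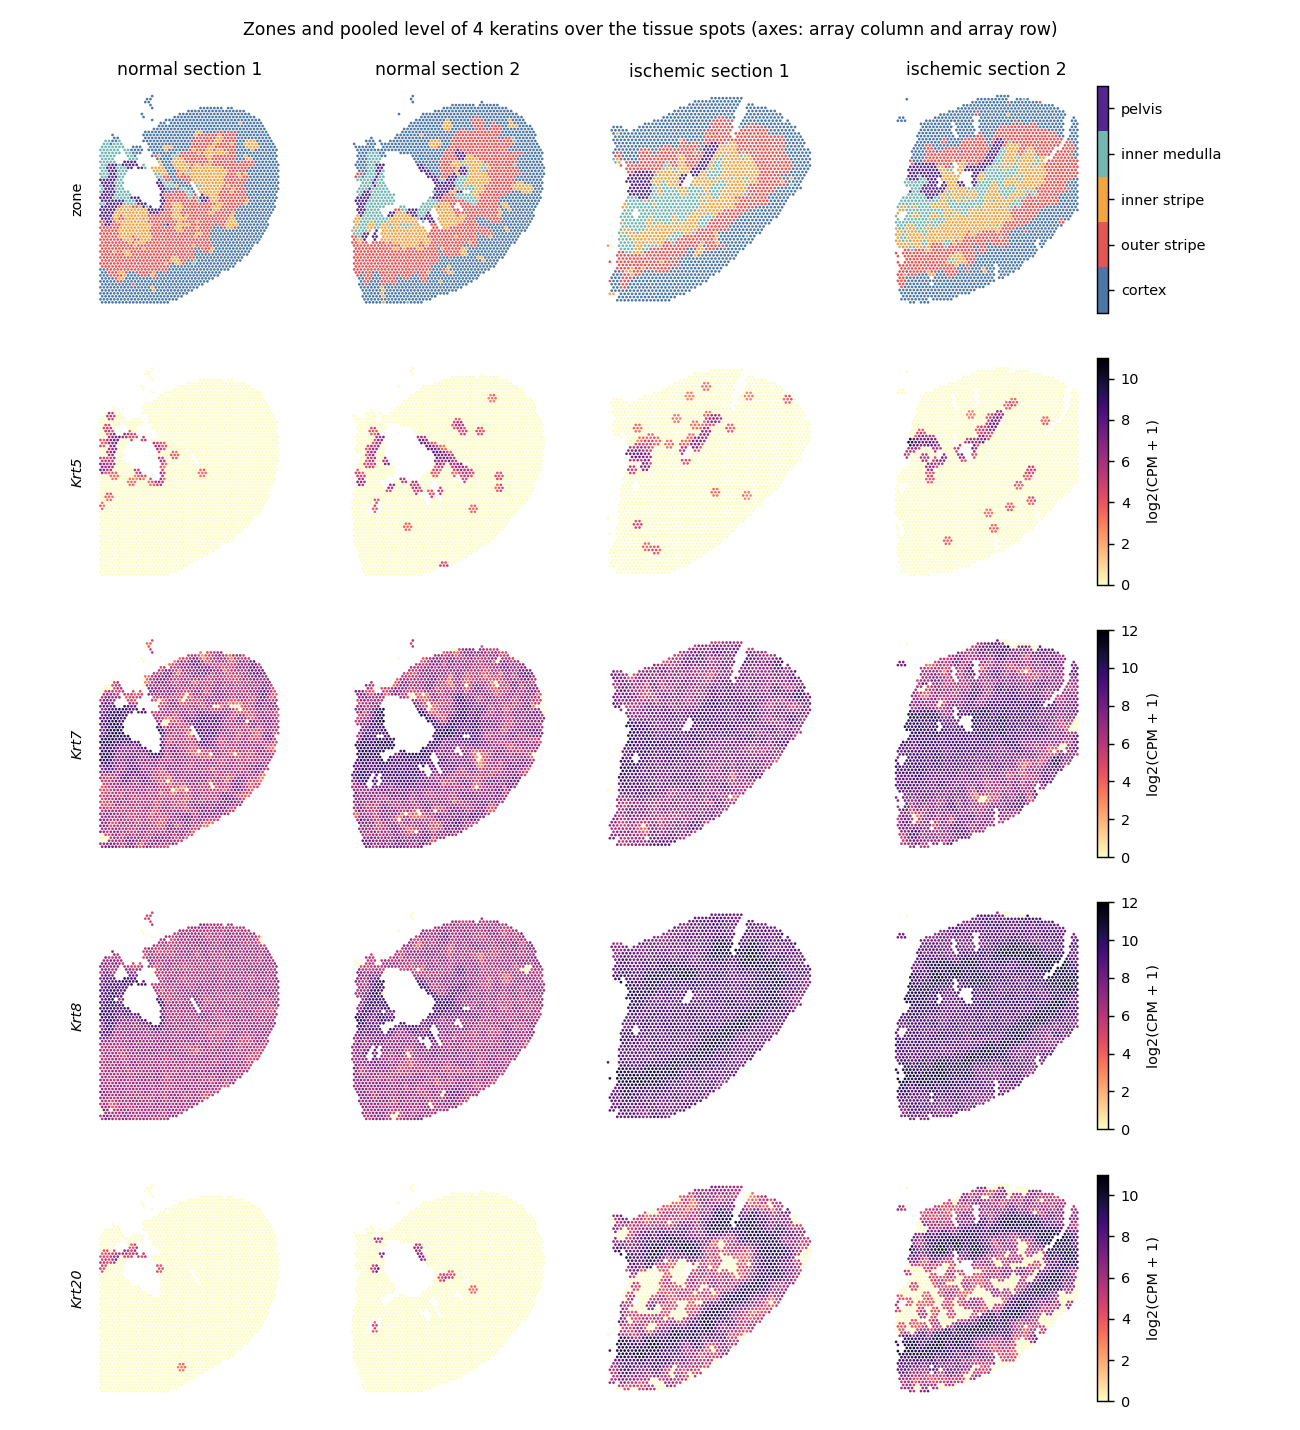
Maps of the tissue spots of each section, with array column and array row as axes and 1 dot per spot. The top row colours the zones and the other rows the level of Krt5, Krt7, Krt8 and Krt20 in a spot and its neighbours, as log2(CPM + 1). Krt20 is near 0 in normal sections and forms a band over the outer stripe in both ischemic sections, where Krt8 is also highest, whereas Krt5 stays along the pelvis in all 4 sections.

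By zone, the rise of Krt20 was widest in the outer stripe, the zone of the straight proximal tubules. No Krt20 UMI was counted among 25471540 UMIs of the outer stripe in the normal sections, against 5376 and 4936 UMIs in ischemic sections 1 and 2 (534 and 587 normalized CPM). Set against a floor of 3 counts over both normal sections, the level was at least 4518-fold higher in ischemic sections. With every spot thinned to 2000 UMIs, 57.1% and 55.0% of outer stripe spots had a Krt20 UMI in the ischemic sections, against 0 of 799 spots and 0 of 791 in normal sections, which allow shares of up to 0.375% and 0.379%. Without thinning the shares were 91.2% and 87.9%, and 0 in both normal sections. Of all Krt20 UMIs in a section, 77.1% and 78.2% lay in the outer stripe. The remaining zones of the ischemic sections had lower levels of Krt20. The pelvis was at 127 and 130 normalized CPM, the cortex at 79.2 and 83.4, the inner stripe at 67.2 and 69.1, and the inner medulla at 50.1 and 40.2.

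Outside the outer stripe, Krt20 also rose. In the cortex it had 1 and 2 UMIs in the normal sections against 929 and 728 in the ischemic sections, a ratio of 830 between the CPM of the conditions (exact 95% interval 284 to 4030, which covers counting error only). In the inner stripe the normal sections had 0 UMIs and the ischemic sections 329 and 328, at least 223-fold higher against the same floor. In the inner medulla the log2 difference was 4.48 ± 0.38 (edgeR adjusted p = 1.42e-07), with 5 and 1 UMIs against 170 and 124. In the pelvis, where Krt20 was at 7.79 and 8.48 normalized CPM in normal sections, it was 3.97 ± 0.27 (edgeR adjusted p = 2.40e-08). When spots were assigned without neighbours, Krt20 in ischemic sections was lower in the pelvis than in the other zones (-1.26, edgeR adjusted p = 0.00346). Havcr1 was read in spots with at least 3 own UMIs of the pelvis genes. It was at 904 and 463 CPM there in ischemic sections, against 0.33 and 3.73 CPM in normal sections. The part of tubule RNA in the pelvis values of Krt20 was not tested. The few Krt20 UMIs of normal kidney were mostly at the pelvis: 11 of 17 in section 1 and 14 of 17 in section 2.

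**Figure D2:**
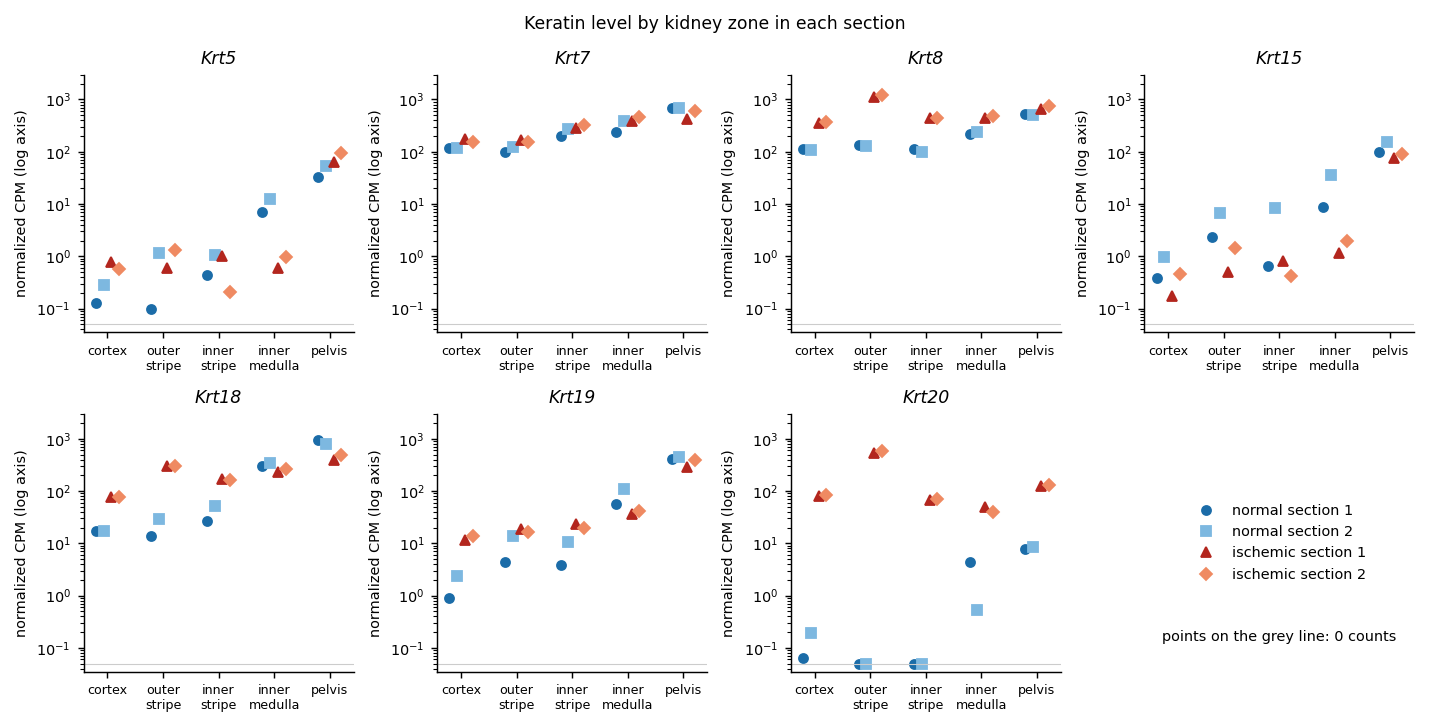
Normalized CPM of each keratin on a log axis, by zone, with 1 point per section. Krt20 moves from 0 UMIs in the outer stripe of normal sections to 534 and 587 in ischemic sections, and Krt5 and Krt15 are highest in the pelvis in all 4 sections.

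Krt8 rose in all 5 zones and Krt18 in the cortex and both stripes. In the outer stripe Krt8 was at 132 and 126 normalized CPM in normal sections and reached 1140 and 1242 after ischemia, a log2 difference of 3.20 ± 0.14 (edgeR adjusted p = 2.19e-12). Krt18 went there from 13.8 and 29.3 to 296 and 301, a log2 difference of 3.81 ± 0.28 (edgeR adjusted p = 1.42e-09). In the cortex the differences were 1.74 for Krt8 and 2.14 for Krt18, and in the inner stripe 2.05 and 2.13. Towards the papilla and pelvis the pair parted. Krt8 rose by 0.97 ± 0.14 in the inner medulla and, at the pelvis, by 0.46 ± 0.13, the latter lost without either ischemic section (edgeR adjusted p = 0.116 and 0.369), with the pelvis drawn at the top 2.5% of spots (0.18, 0.399) and with each zone fitted on its own (0.49, 0.0663). In the inner medulla Krt18 did not pass the test (-0.37), and the alternatives went both ways. When spots were assigned without neighbours it rose there (0.74, edgeR adjusted p = 0.0102). With the pelvis drawn at the top 2.5% of spots it fell there (-0.64, edgeR adjusted p = 0.0453), and without normal section 1 the difference was -0.43. At the pelvis Krt18 fell from 938 and 782 normalized CPM to 397 and 490, a log2 difference of -0.95 ± 0.25 (edgeR adjusted p = 0.00905). That fall was lost without either ischemic section (edgeR adjusted p = 0.252 and 0.126), when spots were assigned without their neighbours (-0.40, edgeR adjusted p = 0.252) and without the TMM factors (-0.84, edgeR adjusted p = 0.0610). The pelvis genes were at 5278 and 6433 CPM in the pelvis zone of normal sections against 740 and 1026 in ischemic sections, and their part in the Krt18 values was not tested.

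The ratio of Krt18 to Krt8 UMIs within the same spots, a comparison chosen after seeing the data, shows the same parting without any scaling by depth. Per 100 Krt8 UMIs, the pelvis of normal sections had 180 and 154 Krt18 UMIs, and the pelvis of ischemic sections 61.3 and 64.1. The inner medulla gave 134 and 141 against 53.7 and 55.3. Inner medulla spots of normal sections held 1035 and 3706 UMIs of the pelvis genes, against 44 and 148 in ischemic sections. The part of these genes in the ratio was not tested. In the cortex the ratio was 15.5 and 16.3 in normal sections and 21.2 and 20.8 in ischemic sections. In the outer stripe it was 10.4 and 23.2 against 26.0 and 24.3. In the inner stripe it was 23.7 and 51.2 against 37.9 and 37.6, so that the groups overlapped. From cortex to pelvis the ratios spanned a wider range in normal sections than in ischemic sections. Krt20 per 100 Krt8 UMIs was 46.9 and 47.3 in the ischemic outer stripe, 21.9 and 22.5 in the cortex and 14.98 and 15.69 in the inner stripe. No test of these ratios was run. With 2 sections per group, the exact permutation test of a single value cannot give a p under 0.333.

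**Figure D3:**
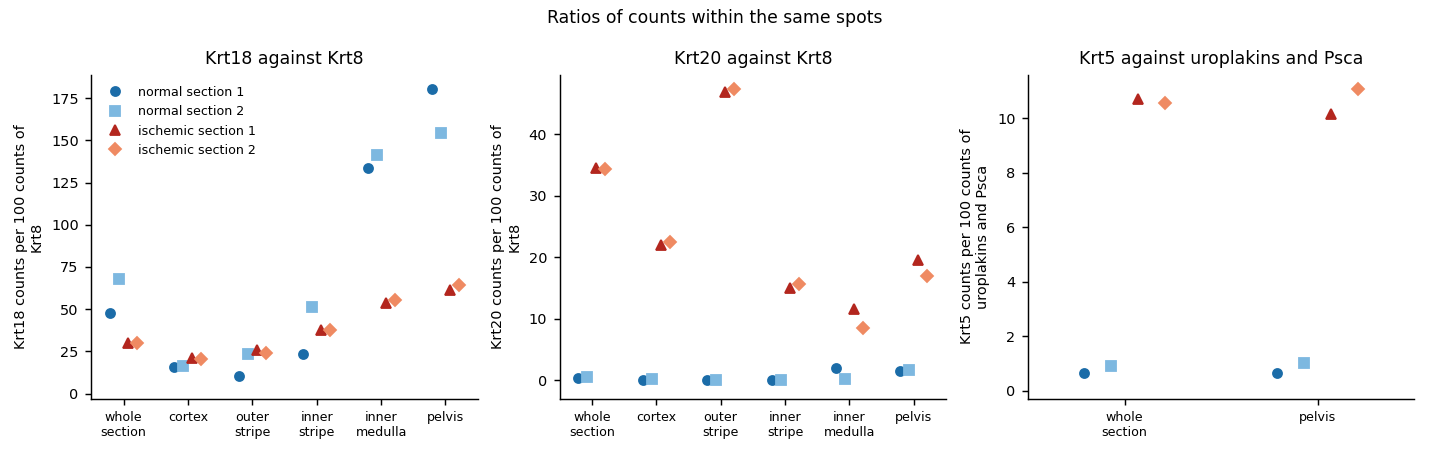
UMIs of Krt18 and of Krt20 per 100 UMIs of Krt8 by zone, and of Krt5 per 100 UMIs of the uroplakins and Psca, with 1 point per section. Krt18 per 100 Krt8 in the pelvis is 180 and 154 in normal sections against 61.3 and 64.1 in ischemic sections, and Krt5 per 100 pelvis-gene UMIs in whole sections is 0.66 and 0.89 against 10.7 and 10.6.

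Of the duct keratins Krt7 and Krt19, Krt7 passed the test in the outer stripe alone of the 5 zones, and Krt19 in the cortex, both stripes and the inner medulla. Krt7 in the cortex was at 117 and 120 normalized CPM in normal sections, against 175 and 153 after ischemia (log2 difference 0.47, edgeR adjusted p = 0.0790). The outer stripe gave 97.3 and 122 against 170 and 157 (0.58 ± 0.21, edgeR adjusted p = 0.0235), a call lost without either ischemic section (0.191 and 0.109). The other zones did not pass the test for Krt7, with a log2 difference of 0.43 for the inner medulla, 0.40 for the inner stripe and -0.40 for the pelvis. Some alternatives called Krt7 in more zones. Without neighbours, it passed in the cortex (0.55, edgeR adjusted p = 0.0129) and inner medulla (0.44, 0.0410). Without the low-count filter, it passed in the inner stripe (0.47, edgeR adjusted p = 0.0244). Its change in the outer stripe minus that in the cortex was 0.12 (edgeR adjusted p = 0.741). Of 4 other collecting duct genes in whole sections, 0 were higher, 2 were lower (Hsd11b2 and Avpr2) and 2 did not pass the test. In whole sections 60.6% of all genes tested were called, so this count is a description only. Krt19 rose in the cortex from 0.90 and 2.39 normalized CPM to 11.7 and 14.0, a log2 difference of 3.05 ± 0.48 (edgeR adjusted p = 5.19e-05), on 14 and 25 UMIs against 137 and 122. It also rose in the inner stripe (1.71 ± 0.49) and the outer stripe (1.03 ± 0.39). The outer stripe call was lost with DESeq2 (0.96, adjusted p = 0.0667), and both stripe calls were lost without either ischemic section and when the pelvis was drawn at the top 2.5% of spots (0.71 in the inner stripe, edgeR adjusted p = 0.228). In the pelvis Krt19 was at 409 and 443 against 283 and 398 and did not pass the test. Its direction there depended on the assignment of spots: without neighbours it rose (0.82, edgeR adjusted p = 0.0260). Without normal section 1 the difference was -0.39. With the pelvis spots left out, the whole-section difference of Krt19 was 0.99 (edgeR adjusted p = 0.0466).

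Krt5 and Krt15, the basal-layer keratins, lay at the pelvis in both conditions. Of all Krt5 UMIs of a section, 77.97% and 69.8% fell on pelvis spots under normal conditions, against 79.2% and 87.5% after ischemia, on totals of 59, 129, 106 and 160 UMIs. For Krt15 these shares were 76.6% and 62.1% against 86.7% and 85.0%. In the pelvis Krt5 was at 32.6 and 54.5 normalized CPM in normal sections and reached 64.4 and 93.6 after ischemia. Both ischemic sections lay above both normal ones, but the log2 difference of 0.85 ± 0.32 did not pass the test (edgeR adjusted p = 0.0605). It did pass when spots were assigned without neighbours (2.11, edgeR adjusted p = 0.000286). Krt15 there was at 99.9 and 151 against 75.2 and 90.9, and did not pass the test either (-0.60, edgeR adjusted p = 0.281).

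Relative to the pelvis genes, which were themselves lower after ischemia, Krt5, Krt15 and Krt19 were all higher in both ischemic sections, so a higher ratio was not particular to the basal keratins. In whole sections there were 0.66 and 0.89 Krt5 UMIs per 100 UMIs of the uroplakins and Psca in normal sections, against 10.7 and 10.6 in ischemic sections. For Krt15 the values were 2.06 and 2.76 against 11.4 and 10.6. Trp63, a transcription factor of basal cells, gave 0.45 and 0.41 against 2.73 and 2.31. Krt19 gave 8.04 and 7.55 against 94.4 and 71.5. For each of the 4 genes both ischemic sections lay above both normal sections. In the pelvis zone alone, Krt5 gave 0.64 and 1.00 against 10.2 and 11.1, Krt15 gave 1.98 and 2.76 against 11.9 and 10.8, and Krt19 gave 8.08 and 8.11 against 44.7 and 47.1. These ratios were chosen after seeing the data and were not tested. Krt5 per 100 Krt15 UMIs was 32.1 and 32.2 in whole normal sections and 93.8 and 100 in ischemic sections.

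In the inner medulla, 5 members were called: Krt8 and Krt20 rose, and Krt5, Krt15 and Krt19 fell. Krt5 went from 7.17 and 12.6 normalized CPM to 0.59 and 0.97 (log2 difference -3.72 ± 0.77, edgeR adjusted p = 0.000821) and Krt15 from 8.96 and 35.1 to 1.18 and 1.94 (-3.98 ± 0.83, edgeR adjusted p = 0.000951). Krt19 was at 57.4 and 109 against 36.3 and 42.4 (-1.12 ± 0.37, edgeR adjusted p = 0.0229). The Krt19 call was lost without normal section 2 (-0.54), without either ischemic section (-0.98 and -1.21) and without the TMM factors (-0.95), and the Krt15 call without ischemic section 1 (-3.62, edgeR adjusted p = 0.0528). Inner medulla spots of normal sections held 866 and 2278 CPM of the pelvis genes against 15.9 and 58.2 in ischemic sections. When spots were assigned without neighbours, Krt5 (-0.23, edgeR adjusted p = 0.831) and Krt15 (-0.50, 0.585) no longer passed the test and Krt19 rose (1.05, 0.00973), as did Krt18 (0.74, 0.0102). The Krt15 fall in the outer stripe (from 2.33 and 6.69 to 0.50 and 1.43 normalized CPM, -2.19, edgeR adjusted p = 0.0200) was lost in 5 alternatives, among them without neighbours (-1.42, 0.0864) and without either ischemic section (-1.57 and -3.06), and the pelvis genes there were at 32.4 and 125 CPM against 5.22 and 5.54.

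Counted over zones, 4 of 7 members rose and 0 fell in the cortex, where 40.9% of 13987 genes were called. In the outer stripe 5 rose and 1 fell, where 57.8% of genes were called, and in the inner stripe 4 rose and 0 fell, where 48.4% were. The inner medulla had 2 rises and 3 falls (37.2% of genes called), and the pelvis had 2 rises and 1 fall (24.8%). The median difference of the members was 1.74, 1.03, 1.71, -0.37 and -0.32 in these 5 zones, in the order given, against medians between -0.06 and 0.01 for all genes tested. Without the TMM factors the median of all genes was 0.31 over whole sections, 0.40 for the outer stripe, 0.37 for the inner stripe, 0.22 for the cortex, 0.13 for the inner medulla and 0.04 for the pelvis. Under that scaling Krt8, Krt18 and Krt20 were still called in the cortex and both stripes.

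**Figure D4:**
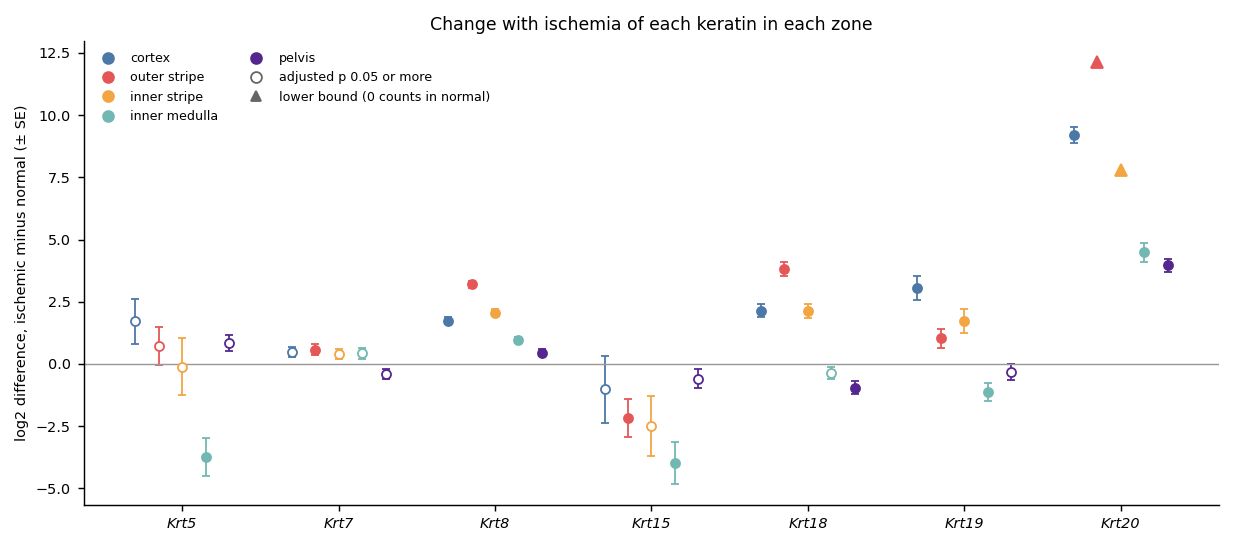
Log2 difference (ischemic minus normal, ± SE of the edgeR fit) of each keratin in each zone. Filled points passed the test, open points did not, and triangles are lower bounds from pooled CPM where normal sections had 0 UMIs. Krt8 is above 0 in all 5 zones, with its highest value in the outer stripe (3.20), whereas Krt18 falls below 0 in the pelvis (-0.95).

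The change with ischemia was also compared between zones within sections. The outer stripe against the cortex gave a larger change for Krt8 (log2 difference of the changes 1.46 ± 0.13, edgeR adjusted p = 2.31e-07) and Krt18 (1.72 ± 0.29, 0.000254), and a smaller one for Krt19 (-1.95 ± 0.47, 0.00496), lost without ischemic section 2 (-1.74, 0.0764). Krt20 was called too (edgeR adjusted p = 0.0296), but its fit rests on 0 UMIs in the normal outer stripe, and the call was lost in 5 of 14 alternatives. These are 4 of 7 members, where 21.8% of genes were called. Krt5, Krt7 and Krt15 did not pass this test. The pelvis against the mean of the other zones gave a lower change for Krt7 (-0.89 ± 0.17), Krt8 (-1.53 ± 0.11), Krt18 (-2.92 ± 0.22), Krt19 (-1.53 ± 0.24) and Krt20, whose fit again rests on zones with 0 UMIs, and a higher one for Krt15 (1.79 ± 0.43), which is 6 of 7 members where 9.20% of genes were called. The Krt15 call was lost in 5 of 14 alternatives, among them without normal section 2 (0.79, edgeR adjusted p = 0.307) and without either ischemic section (1.66 and 2.03). The Krt7 call was lost without neighbours (-0.18, 0.521) and without ischemic section 1 (-0.69, 0.155), and the Krt19 call without ischemic section 1 (-1.34, 0.0708).

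Within normal sections all 7 members were higher in the pelvis than in the other zones, where 37.8% of genes were called. The log2 differences were 5.45 ± 0.29 for Krt5, 5.003 ± 0.22 for Krt15, 5.54 ± 0.16 for Krt19, 4.25 ± 0.14 for Krt18, 1.95 ± 0.11 for Krt7 and 1.90 ± 0.07 for Krt8. For Krt20 the fitted difference is no measure of size, since both normal sections had 0 UMIs of it in both stripes, against 11 and 14 in the pelvis. Within ischemic sections 6 of 7 were higher there, where 13.3% of genes were called. The log2 differences were 6.67 ± 0.25 for Krt5, 6.80 ± 0.30 for Krt15, 4.01 ± 0.15 for Krt19, 1.33 ± 0.14 for Krt18, 1.07 ± 0.12 for Krt7 and 0.37 ± 0.07 for Krt8. The Krt8 call was lost without either ischemic section (edgeR adjusted p = 0.0682 and 0.389), and Krt20 did not pass the test (0.23 ± 0.12, edgeR adjusted p = 0.222).

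Levels were also read by distance from the urothelium, in single spots. Spots with at least 3 own UMIs of the pelvis genes were taken as urothelium spots, 252 and 350 in normal sections, against 58 and 89 after ischemia, and since the cut is on uroplakin RNA it does not select like spots in the 2 conditions. Krt5 dropped from 18.1 and 32.3 CPM in these spots to 0.38 and 0.44 CPM one spot away in normal sections, and from 109 and 169 to 10.0 and 8.13 in ischemic sections. Krt19 dropped from 218 and 277 to 10.5 and 9.18, and from 475 and 686 to 52.7 and 89.4. Krt18 went from 555 and 560 to 27.1 and 37.2 CPM in normal sections and from 558 and 778 to 276 and 377 CPM in ischemic sections. Krt20 ran the other way in ischemic sections, with 109 and 93.5 CPM in urothelium spots and 254 and 258 CPM at 3 to 5 steps. In normal sections Krt20 was at 4.93 and 4.00 CPM in urothelium spots and under 0.5 CPM at every further step.

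**Figure D5:**
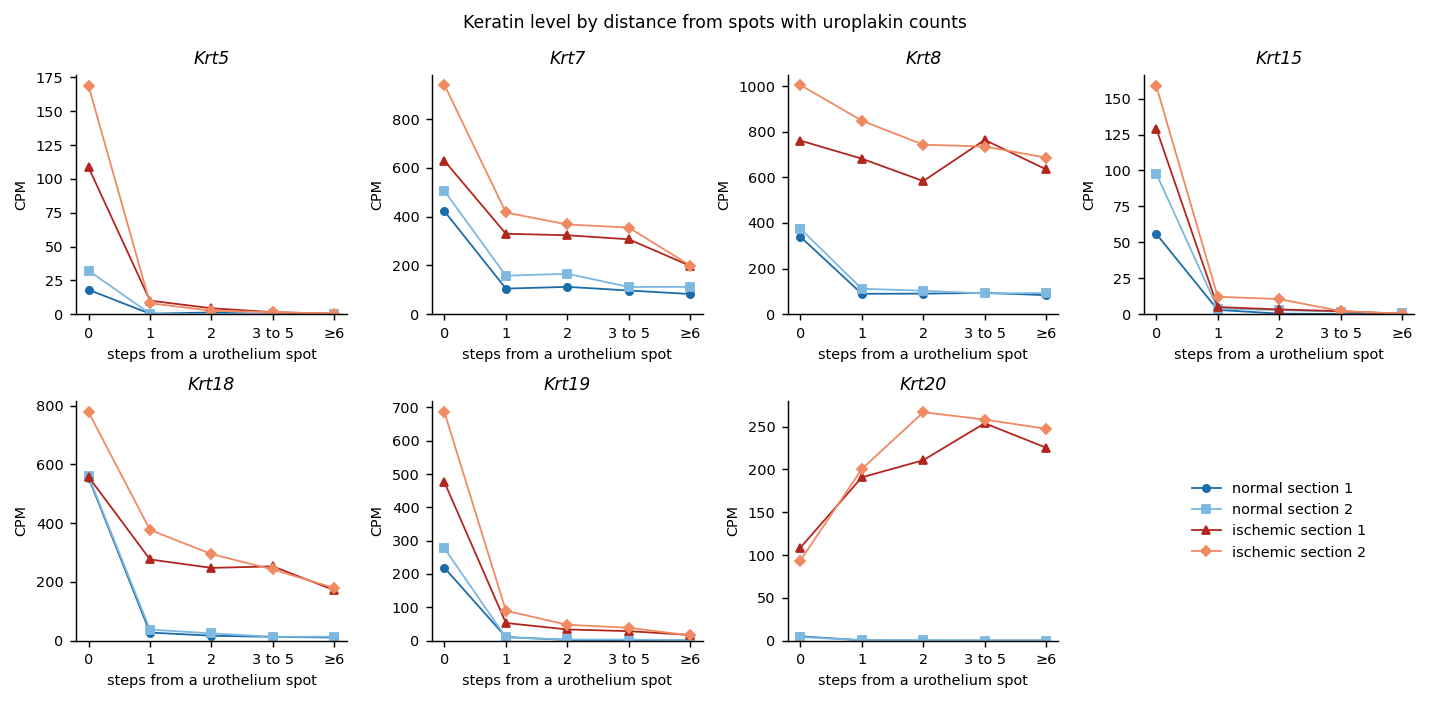
CPM of each keratin against the number of spot steps from the nearest urothelium spot, with 1 line per section. Krt5, Krt15 and Krt19 drop at the first step in all 4 sections, while Krt20 in ischemic sections rises from 109 and 93.5 CPM at step 0 to 254 and 258 CPM at 3 to 5 steps.

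From spot to spot, the members differed in the marker genes they went with. The following Spearman correlations are over all spots of a section, on counts pooled with neighbours, so that spots share depth and neighbours, and they are given as descriptions. In the ischemic sections Krt20 went with Havcr1, the proximal tubule injury gene (rho 0.80 and 0.79), and against Aqp2, the water channel of collecting ducts (-0.32 and -0.44). Krt7 did the reverse, at -0.63 and -0.65 with Havcr1 and at 0.68 and 0.74 with Aqp2, and it was at 0.68 and 0.75 with Lcn2. In normal sections Krt7 was at 0.59 and 0.62 with Aqp2. Krt8 went with Krt20 (0.65 and 0.62) and Krt18 (0.67 and 0.68) in ischemic sections, while Krt8 with Krt18 was at 0.32 and 0.45 in normal sections. Krt18 in ischemic sections was at -0.07 and -0.12 with Havcr1 and at 0.26 and 0.21 with Krt20. It was at 0.40 and 0.44 with Aqp2 and at 0.66 and 0.62 with Lcn2. Within the ischemic outer stripe alone, Krt8 was at 0.86 and 0.83 with Krt20 and at 0.75 and 0.77 with Krt18, whereas Krt7 was at -0.02 and -0.10 with Krt20. Krt5 with Krt15 gave 0.44 and 0.47 in normal sections, against 0.47 and 0.54 after ischemia.

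Over the 20 sums of section and zone, the pairs of members most alike were Krt8 with Krt20 (Pearson r 0.94), Krt5 with Krt15 (0.93) and Krt5 with Krt19 (0.91), and the least alike was Krt15 with Krt20 (-0.07). The sums share sections and zones, and r is a description. Of 13980 genes compared, those most like Krt20 were Trp53 (0.99), Wdr1 (0.98) and Cdkn1a (0.98). For Krt8 they were F3, Ybx3 and Klf3 (0.97 each), and for Krt18 they were Klf5 (0.97), S100a6 (0.97) and Pld2 (0.96). Krt7 was most like Ehf, Fam3c and Gm16136 (0.96 each). Krt19 was most like Oit1 (0.97), S100a14 (0.96) and Abcc3 (0.96). Krt5 was most like Gabrp (0.98), Serpinb5 (0.97) and Msln (0.97), and Krt15 most like Foxa1 (0.98), Mir205hg (0.97) and Slc39a4 (0.97).

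Of 17 other keratins, 8 had enough counts to be tested in whole sections: 5 were higher in ischemic sections, 0 were lower and 3 (Krt10, Krt14 and Krt23) did not pass the test, with a median log2 difference of 1.09. The share called was close to the 60.6% of all genes. Krt12 had 0 and 0 UMIs in normal sections against 11 and 9 in ischemic sections, at least 8.44-fold higher against 3 counts over both normal sections. Krt16, a keratin induced in stressed epidermis, had 1 and 1 against 28 and 17 UMIs, a ratio of 28.5 (exact 95% interval 7.44 to 242). Krt4, Krt17 and Krt80 were the other 3. In the outer stripe 7 of the 17 were tested, of which Krt80 (1.25) and Krt23 (0.98) were higher and 5 did not pass the test, where 57.8% of genes were called.

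Among genes that tie keratin filaments to desmosomes and hemidesmosomes, 14 of 15 were tested in whole sections, 10 were higher, 3 lower and 1 did not pass the test, where 60.6% of all genes were called, with a median of 0.68. Plec, the linker plectin, had a log2 difference of 1.89 ± 0.12 (edgeR adjusted p = 2.43e-06) and Itga6, the hemidesmosome integrin, 1.66 ± 0.10 (1.33e-06). The 2 lowest were Evpl (envoplakin, -1.33 ± 0.13, 3.56e-05) and Dst (dystonin, -0.65 ± 0.10, 0.000574). In the outer stripe all 15 were tested, with 9 higher and 3 lower, where 57.8% of genes were called, and there Itgb4 (2.99) and Ppl (2.85) had the largest rises. In the pelvis, where 24.8% of genes were called, 4 were higher, 3 lower and 8 did not pass the test. Of 7 other intermediate filament genes, 6 were higher in whole sections, among them Lmnb1 (lamin B1, 1.80 ± 0.21) and Vim (vimentin, 1.75 ± 0.14), and Synm (synemin, -0.78 ± 0.30) was lower. In the outer stripe 6 were higher, 0 were lower and Synm did not pass the test.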

How the data were processed

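Visium sections of mouse kidney, 2 normal and 2 ischemic, were analysed. The authors made the deposited files with Space Ranger 1.3.0 on build mm10 (processing notes and file headers). Each deposited matrix holds raw UMI counts per gene and spot, for spots over tissue only, with no normalization. Spot barcodes, gene names and array positions were deposited beside them.

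Each spot was scored for 4 zones on pooled counts of itself and up to 6 neighbours (mean log2(CPM + 1) of marker genes, standardised within the section, highest score). Pelvis spots had at least 10 pooled pelvis-gene UMIs and lay in the top 5% of the section. The markers hold no keratin. Counts were summed per section, and per section and zone (20 sums). Differences were tested with edgeR 4.0.16 (quasi-likelihood, TMM, filterByExpr, Benjamini-Hochberg threshold 0.05) under R 4.3.3. Whole sections were compared 2 against 2. Zones were fitted together with a group per condition and zone and no term for the section, so sums of the same section were treated as independent. Comparisons between zones used the section as a block. DESeq2 1.42.0 was an alternative. Python 3.11.15 with scipy 1.17.1 gave intervals and correlations.

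The members and the lists were chosen with earlier results of these data known. Named genes were the 7 members, Havcr1 and Lcn2, genes of the lists by count with up to 2 called rises and 2 called falls, and for each member the 3 other genes with the highest Pearson r of log2 CPM (prior count 2). Counts of 3′ captured UMIs were not compared between genes as levels.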

Additional observations from a re-analysis of the deposited data

Results flagged for a closer look

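Changes with ischemia that differed between zones of the same sections, by the edgeR test of that difference, concerned 6 of the 7 keratins. This is taken over 2 comparisons. Of all genes, 21.8% were called for outer stripe minus cortex and 9.20% for the pelvis against the other zones. The outer stripe minus cortex difference of the changes (log2) was 1.46 for Krt8, 1.72 for Krt18, -1.95 for Krt19 and 5.44 for Krt20. The difference of the changes between the pelvis and the other zones was -0.89 for Krt7, -1.53 for Krt8, 1.79 for Krt15, -2.92 for Krt18, -1.53 for Krt19 and -6.05 for Krt20. Of 14 alternatives, the Krt15 call was lost in 5, the Krt7 call in 2 and the Krt19 call in 1. For outer stripe minus cortex, the Krt20 call was lost in 5 of 14 and the Krt19 call in 1. Both Krt20 values depend on 0 UMIs in zones of both normal sections (the outer stripe, and for the pelvis comparison also the inner stripe) and are no measure of size. Pelvis genes fell from 5278 and 6433 CPM in the pelvis zone of normal sections to 740 and 1026 in ischemic sections, and their part in the pelvis values was not tested. With 2 sections per group, no section could be examined as standing apart within its group.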

How the results depend on the processing

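Of 996 recomputed values of the 7 keratins, 899 kept their side of the threshold, 41 newly passed it and 51 no longer did. The other 5 reversed, which here means that they passed the threshold with the opposite sign. Among the 899, some values that did not pass changed sign as well. Examples are Krt5 in whole sections (down to -0.34) and Krt7 in the pelvis (up to 0.33). In whole sections, Krt8, Krt18 and Krt20 were called under all 12 alternatives (log2 2.22 to 2.52, 1.04 to 2.28 and 8.43 to 10.5). Krt15 was lost with DESeq2 (-1.16) and without normalization factors, a setting added after seeing the data (-0.91). Krt5 passed without the low-count filter (0.53), and Krt19 with pelvis spots left out (0.99). Without neighbours, reversals were Krt18 (0.74) and Krt19 (1.05) in the inner medulla, Krt19 in the pelvis (0.82) and Krt20 in ischemic pelvis against other zones (-1.26). Without normalization factors the share of rises among called genes went from 51.1% to 67.0% in whole sections, 50.8% to 67.7% in the cortex, 48.4% to 69.8% in the outer stripe, 47.0% to 67.2% in the inner stripe, 39.0% to 51.7% in the inner medulla, 50.9% to 78.4% and 53.1% to 79.5% for normal and ischemic pelvis against other zones, 36.7% to 61.7% for outer stripe minus cortex and 47.5% to 22.0% for pelvis minus others. The causes were not tested.

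Same-numbered sections share only a number (correlation of section 1 minus section 2 between conditions 0.16 over 15305 genes, 2 pairs). With a replicate block Krt5 passed in whole sections (0.56). Without the section block, genes called were 1132 (pelvis, ischemic), 1771 (outer stripe minus cortex) and 640 (pelvis minus others). Pelvis counts were 2227 genes without neighbours, 2251 at the top 2.5% and 5 keratins without the filter. The inner medulla fitted alone gave 3408 genes.

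Leaving out 1 section in turn, with the lone section assumed to vary like the other pair, gave -0.12 to 1.39 for Krt5, 0.32 to 0.66 for Krt7, -1.72 to -0.21 for Krt15 and -0.28 to 0.71 for Krt19, whose reversal was without normal section 1. Keratins called were 3 to 6 in whole sections, 3 to 7 in the outer stripe, 3 to 6 in the inner medulla, 1 to 6 in the pelvis, 2 to 4 for outer stripe minus cortex and 3 to 6 for pelvis minus others. Genes called were 2543 to 7106 in the cortex, 4171 to 7452 in the inner stripe, 2840 to 4815 in the inner medulla, 1148 to 3685 in the pelvis, 281 to 2672 in ischemic pelvis against others, 849 to 3872 for outer stripe minus cortex and 255 to 1478 for pelvis minus others.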
